A study of Homo sapiens with 9 samples.

Results

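The genes described here are 53 genes of the lysosome, fixed by name as the hydrolases, membrane proteins and proton pump (V-ATPase) subunits listed for this work, and measured as messenger RNA in the human acute myeloid leukemia line MOLM13. They are 53 of the 25679 gene symbols counted, and the list was chosen with earlier results of these data known. By role, 12 encode proteases, 14 glycosidases or sulfatases, 8 lipid enzymes or lipid carriers, 8 membrane proteins and 9 pump subunits. The other 2 are GRN, the secreted precursor of the granulins, and TFEB, a transcription factor of lysosomal genes. The series set 2 short hairpin RNAs (shRNAs) against YTHDC1, which binds m6A-marked RNA in the nucleus, against a control shRNA. There were 3 groups of 3 libraries: virus with YTHDC1 shRNA 1, virus with YTHDC1 shRNA 2, and virus with control shRNA. All groups, control included, were spun with virus and polybrene, kept for 48 hours and then selected with puromycin for 48 hours, so no untransduced cells are among them. MOLM13 is 1 line, and the labels number the libraries of a group without naming separate cultures. What the p-values gauge is thus library-to-library spread, possibly of technical origin.

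Lysosomes are acidic organelles in which hydrolases break down proteins, glycans and lipids that arrive by endocytosis, phagocytosis or autophagy. The V-ATPase pumps protons into them, glycosylated membrane proteins line them, and transporters and channels let the products and ions out. Many of these genes are regulated by the transcription factors TFEB, TFE3 and MITF through E-box motifs in their promoters, and macrophages and monocytes are known for a large lysosomal compartment. In myeloid cells the same hydrolases also process antigens and granule enzymes.

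Library totals ran from 26455628 counts (shRNA 2 replicate 1) to 67558535, so that 3 counts, the most that a count of 0 allows, equalled 0.0444 to 0.113 CPM (the usual counts scaled to library total) before TMM scaling. YTHDC1 stood at 117, 103 and 134 CPM in the libraries labelled shRNA 1, at 0, 61.4 and 52.5 CPM with shRNA 2, and at 134, 139 and 122 CPM in control. Without shRNA 2 replicate 1, which held 0 counts, YTHDC1 fell by 1.23 on the log2 scale with shRNA 2 (edgeR adjusted p = 2.2e-05) and stood at -0.18 with shRNA 1 (edgeR adjusted p = 0.271). With that library in the fit the SE was 1.4 and neither change passed (shRNA 2 at -1.79, edgeR adjusted p = 0.326; shRNA 1 at -0.16, edgeR adjusted p = 0.938). The same replicate stood apart in other genes. Of 13533 genes with at least 1 CPM in shRNA 2 replicates 2 and 3, 712 lay below 0.5 times both of these there. The 712 held 0 lysosomal genes, but CTSF, LGMN and SGSH were under 1 CPM and could not be among them. Among markers of the cell type, SPI1, CD33 and FLT3 were present in all 9 libraries, with lowest values of 35.5, 46.2 and 259 CPM. KIT, of the same list, reached at most 0.286 CPM. FLT3 fell by 0.42 with shRNA 1 and by 1.17 with shRNA 2 (edgeR adjusted p = 0.0146 and 1.02e-05). SPI1 rose by 0.55 and 1.07 (edgeR adjusted p = 0.0479 and 0.00112), and CD33 passed with neither. Summed over each list, 9 erythroid and megakaryocyte markers stayed at or under 1.36 CPM in every library, with PF4 at 0 throughout, and 8 epithelial and stromal markers at or under 8.01 CPM. The 8 lymphocyte markers summed to 14.1 to 35 CPM, nearly all of it NKG7.

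Most of the 53 genes were higher with either shRNA than with control shRNA, and more so with shRNA 2. With shRNA 1, 32 of the 52 genes tested rose and 1, GUSB, fell; over all 16746 genes tested, 20.4% rose and 19.0% fell. With shRNA 2, 40 of 52 rose and 1, again GUSB, fell, against 27.5% and 27.4% of all genes. The median log2 fold change of the lysosomal genes was 0.68 with shRNA 1 and 1.31 with shRNA 2, beside 0.02 and -0.02 over all genes tested. Since the 53 genes were chosen with earlier results of these data known, their contrast with all genes describes the list and is not an independent test. Their summed level was 5163, 4371 and 3600 CPM with shRNA 1, 8227, 6515 and 6782 CPM with shRNA 2, and 2726, 2538 and 2521 CPM in control. Every library of both shRNA groups was thus above every control library in this sum. Because RNA was taken from bulk cells, a different mixture of cells and a different amount of RNA per cell cannot be told apart in these values.

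The gene left untested was CTSF, a cathepsin with 1 to 6 counts per library. Both comparisons use the same control libraries, so their calls are not independent of each other. In both, 31 genes rose and GUSB fell. Another 9 genes passed with shRNA 2 alone: CTSD, CTSL, SGSH, NPC1, MCOLN1, ATP6V0D1, ATP6AP1, ATP6AP2 and TFEB. Each of these 9 was higher with shRNA 2 than with shRNA 1 in the direct test. The differences of SGSH (1.83) and NPC1 (0.33) no longer passed without shRNA 2 replicate 1. The direct test reuses the shRNA libraries by which the 9 genes were picked, so it is not independent of that choice. LAMP2 alone passed with shRNA 1 and not with shRNA 2. A further 10 genes passed with neither: CTSC, LGMN, GAA, MAN2B1, ARSA, GALNS, IDUA, PPT1, LAPTM4A and ATP6V0B. Without shRNA 2 replicate 1, shRNA 2 raised 40 genes and lowered 1, and all 41 calls were shared with those over all libraries; the median was then 1.23.

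**Figure D1:**
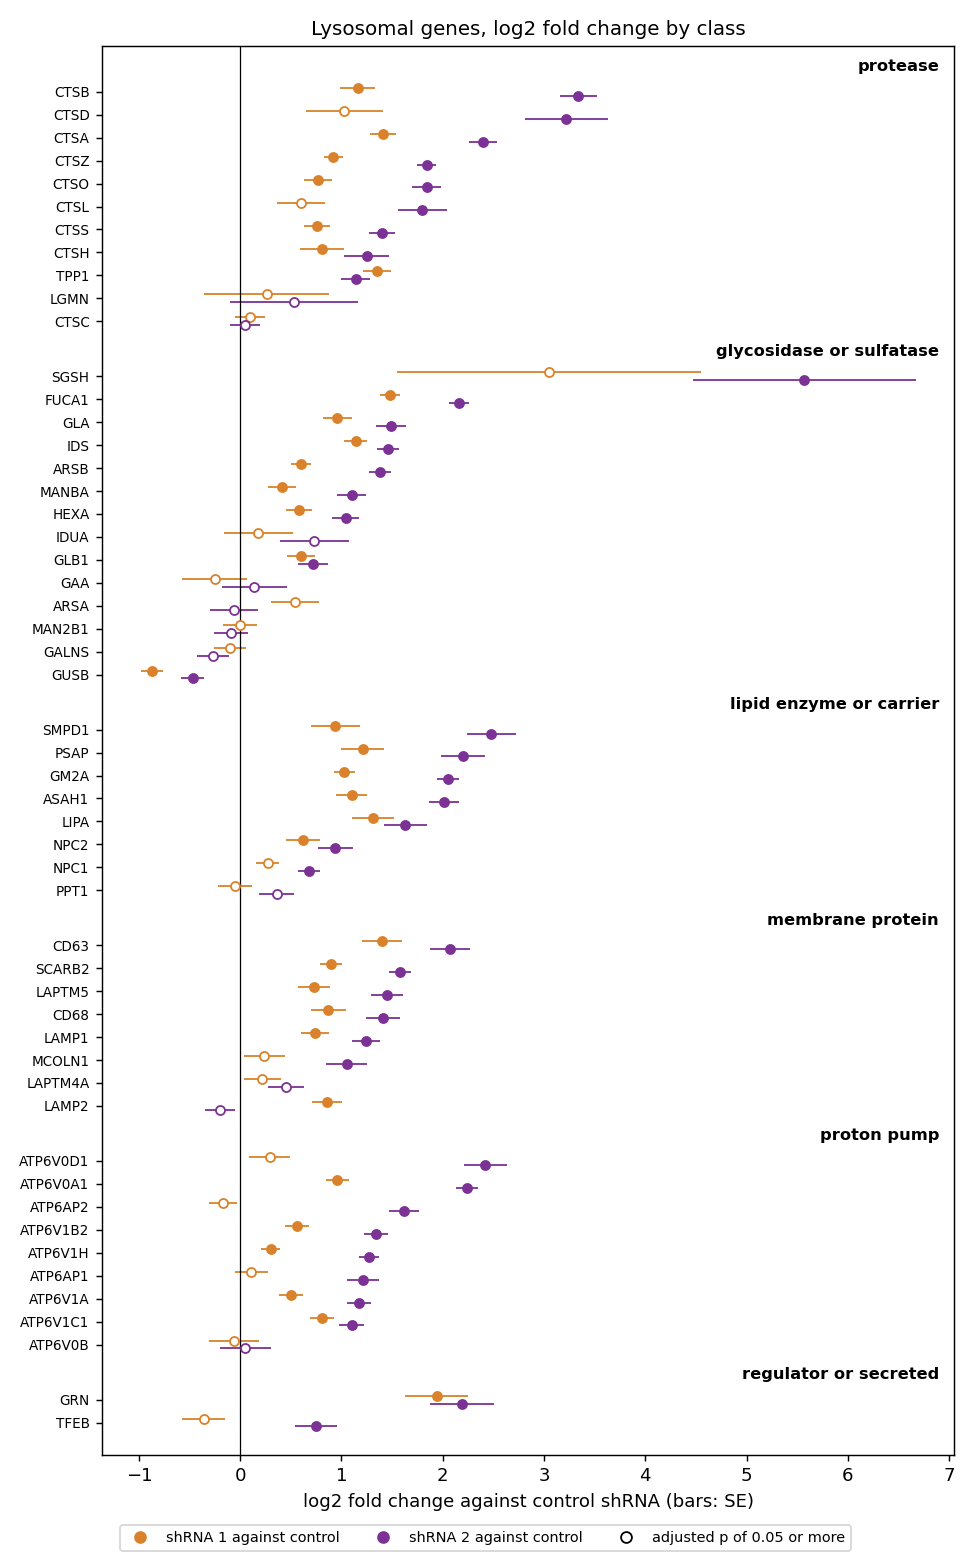
Log2 fold changes against control shRNA (x axis; bars show the SE) for the 52 lysosomal genes tested, by class, with shRNA 1 in orange and shRNA 2 in purple; open circles did not reach an adjusted p below 0.05. In most rows the purple point lies to the right of the orange one; GUSB is the gene with both filled points left of 0, and the wide bars of SGSH rest on 1 control count.

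Promoter sequence was examined because many of the genes moved together and lysosomal genes are known targets of TFEB-type factors; the search was chosen with these results known. RefSeq promoter sequence (build GRCh38.p14) was at hand for 38 of the 53 genes, and the 250 bases before each start were searched on both strands. The motif TCACGTG, the core of the element bound by TFEB, TFE3 and MITF, lay in 9 of the 38 (23.7%), against 3.38% of 27305 promoters of the same length. The shorter E-box CACGTG, which every TCACGTG contains, lay in 10 of 38 (26.3%), against 6.49% of all. The related M-box TCATGTG, a motif of MITF, was added after the GRN sequence had been seen and lay in 5 of 38 (13.2%), against 2.58%. These are matches of letters and not measured binding sites. Of the 9 genes with TCACGTG, CTSA, CTSD, LAMP1, MCOLN1 and ATP6V0D1 rose with shRNA 2, GAA, GALNS and ATP6V0B passed with neither shRNA, and CTSF was not tested. The same letters thus stood before genes of both kinds. The windows below show one match region for the 5 that rose, the 3 that did not pass, and GRN and TPP1 for the M-box. Each is written 5′ to 3′ on the strand of its gene, and capitals mark whole matches of TCACGTG or, for GRN and TPP1, TCATGTG on either strand.
CTSA, chr20:45891262-45891328, + strand: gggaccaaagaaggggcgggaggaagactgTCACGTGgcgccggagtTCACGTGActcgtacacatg
CTSD, chr11:1763938-1764004, - strand: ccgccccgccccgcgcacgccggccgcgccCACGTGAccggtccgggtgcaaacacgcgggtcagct
ATP6V0D1, chr16:67481181-67481247, - strand: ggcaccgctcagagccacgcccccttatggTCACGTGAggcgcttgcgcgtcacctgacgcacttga
MCOLN1, chr19:7522552-7522618, + strand: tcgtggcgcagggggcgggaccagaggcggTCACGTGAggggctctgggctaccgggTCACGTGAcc
LAMP1, chr13:113297016-113297082, + strand: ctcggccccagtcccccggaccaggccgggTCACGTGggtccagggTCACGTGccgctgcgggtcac
GAA, chr17:80101474-80101540, + strand: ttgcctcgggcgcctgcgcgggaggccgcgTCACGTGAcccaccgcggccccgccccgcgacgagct
GALNS, chr16:88857086-88857152, - strand: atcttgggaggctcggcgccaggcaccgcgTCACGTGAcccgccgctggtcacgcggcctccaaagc
ATP6V0B, chr1:43974872-43974938, + strand: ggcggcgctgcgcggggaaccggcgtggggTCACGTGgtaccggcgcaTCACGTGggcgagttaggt
GRN, chr17:44345052-44345116, + strand: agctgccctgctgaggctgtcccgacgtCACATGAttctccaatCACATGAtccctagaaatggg
TPP1, chr11:6619423-6619473, - strand: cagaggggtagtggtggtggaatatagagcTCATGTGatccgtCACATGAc

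Among the proteases, CTSB and CTSD had the largest rises with shRNA 2. Of the 11 tested, 7 rose with shRNA 1 and 9 with shRNA 2, beside 20.4% and 27.5% of all genes. The median log2 fold changes were 0.81 and 1.80. CTSB, the cysteine protease cathepsin B, stood at 246, 221 and 175 CPM with shRNA 1, at 1220, 831 and 863 CPM with shRNA 2, and at 99, 93.8 and 95.7 CPM in control. The 3 groups did not overlap, and the lowest shRNA 2 library was far above the highest of shRNA 1. CTSB rose 2.23-fold with shRNA 1 (log2 fold change 1.16 ± 0.17 (SE); by edgeR, adjusted p = 0.000323) and 10.1-fold with shRNA 2 (3.34 ± 0.18; adjusted p = 1.08e-07). CTSD, the main aspartic protease of the lysosome, had 18.3, 28.7 and 11.9 CPM with shRNA 1, 132, 65.2 and 70.3 CPM with shRNA 2, and 8.48, 9.36 and 11 CPM in control. Its shRNA 2 libraries were well clear of the rest, while the third shRNA 1 library lay just above the highest control. CTSD rose 9.29-fold with shRNA 2 (3.22 ± 0.41, edgeR adjusted p = 0.000319); with shRNA 1 its log2 fold change of 1.03 ± 0.38 missed the threshold (edgeR adjusted p = 0.0657), which it passed without shRNA 1 replicate 3 (1.29) or without shRNA 2 replicate 1 (1.01). Without shRNA 1 replicate 2 the CTSD value was lower, at 0.64 (edgeR adjusted p = 0.179). With shRNA 1, CTSD also passed under DESeq2 (1.03, DESeq2 adjusted p = 0.00314). It passed too with only the shRNA 1 and control libraries fitted (1.02, edgeR adjusted p = 0.0109).

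CTSA, a carboxypeptidase that also stabilises lysosomal beta-galactosidase and neuraminidase, had 84.6, 75.5 and 60.7 CPM with shRNA 1, 167, 130 and 143 CPM with shRNA 2, and 29.3, 26.7 and 27 CPM in control. Again the groups were separate and ordered. Its log2 fold change was 1.41 ± 0.13 with shRNA 1 (edgeR adjusted p = 2.11e-05) and 2.40 ± 0.14 with shRNA 2 (edgeR adjusted p = 1.67e-07). CTSZ, a carboxypeptidase, rose by 0.92 and 1.84 with shRNA 1 and shRNA 2, CTSO, a cysteine protease, by 0.77 and 1.84, and CTSS, which processes antigens for class II presentation, by 0.76 and 1.40. CTSH, an aminopeptidase, rose by 0.81 and 1.25, its shRNA 1 call being lost without shRNA 1 replicate 1 (0.61) or control replicate 2 (0.65). CTSL, a cysteine protease, rose by 1.80 with shRNA 2; its 0.60 with shRNA 1 passed only when shRNA 1 replicate 2 (0.74) or shRNA 2 replicate 1 (0.58) was left out, among the 9 libraries left out in turn, and CTSL stood at 0.293 without shRNA 1 replicate 1. Under other settings CTSL also passed with shRNA 1: DESeq2 (0.59), a replicate block (0.54) and only the shRNA 1 and control libraries fitted (0.59). TPP1, which removes tripeptides, rose by 1.35 with shRNA 1 and by 1.14 with shRNA 2.

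The protease with the smallest fold changes was CTSC, a dipeptidyl peptidase that activates the serine proteases of granules, with 239, 183 and 167 CPM with shRNA 1, 190, 183 and 193 CPM with shRNA 2, and 217, 178 and 154 CPM in control. All 3 groups overlapped, and neither change passed (log2 fold changes 0.10 and 0.05, edgeR adjusted p = 0.638 and 0.816). LGMN, the asparaginyl protease, had at most 0.409 CPM in any library and did not pass with either shRNA (0.26 ± 0.62 and 0.53 ± 0.63).

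Glycosidases and sulfatases were divided. Of 14, 7 rose and 1 fell with shRNA 1, and 8 rose and 1 fell with shRNA 2, with medians of 0.56 and 0.89. The shares of all genes were 20.4% up and 19.0% down with shRNA 1, and 27.5% and 27.4% with shRNA 2. FUCA1, the fucosidase, stood at 33.9, 29.8 and 30 CPM with shRNA 1, at 49.9, 48.5 and 51.1 CPM with shRNA 2, and at 10.4, 11.2 and 11.9 CPM in control. The libraries of each group were close together and the groups far apart. FUCA1 was 2.80 times its control level with shRNA 1 (log2 1.48 ± 0.10) and 4.47 times that level with shRNA 2 (2.16 ± 0.10), at edgeR adjusted p = 3.09e-06 and 4.88e-08. GLA, the alpha-galactosidase lacking in Fabry disease, had 68, 51.2 and 45 CPM with shRNA 1, 87.2, 77.8 and 73.2 CPM with shRNA 2, and 28.6, 29 and 27 CPM in control. Each shRNA library exceeded every control library. Its log2 fold changes were 0.96 ± 0.14 and 1.49 ± 0.15 (edgeR adjusted p = 0.000425 and 8.51e-06).

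SGSH, the heparan sulfate sulfatase of Sanfilippo disease type A, was near the limit of detection. It had 2, 8 and 0 counts with shRNA 1, 22, 12 and 10 counts with shRNA 2, and 0, 1 and 0 counts in control. All 3 shRNA 2 libraries held more counts than any library of the other groups. Scaled to library size, shRNA 1 stood at 11.6 times control (1.66 to 505, 95% interval from counting error) and shRNA 2 at 63.8 times control (10.9 to 2577). The edgeR test passed with shRNA 2 (adjusted p = 0.00164) and not with shRNA 1 (adjusted p = 0.127). SGSH got through the filter on low counts only by its shRNA 2 libraries. Its calls as higher with shRNA 2, though included in the counts of genes, are therefore not independent of that filter. GUSB, beta-glucuronidase, went against the class, with 11.9, 11.5 and 11.7 CPM with shRNA 1, 16.4, 15.9 and 14.1 CPM with shRNA 2, and 21.8, 20 and 22.4 CPM in control. No library of either shRNA reached the lowest control. GUSB fell by 0.87 on the log2 scale with shRNA 1 (SE 0.11, edgeR adjusted p = 0.000117) and by 0.47 with shRNA 2 (SE 0.11, edgeR adjusted p = 0.00329). GUSB and IDS have near-identical pseudogene copies, and the handling of multiply placed reads is not given in the sources used here, so both levels are uncertain.

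Among the others, IDS, the iduronate sulfatase, rose by 1.14 and 1.46 with shRNA 1 and shRNA 2, ARSB, arylsulfatase B, by 0.60 and 1.38, HEXA, the alpha chain of beta-hexosaminidase, by 0.58 and 1.04, and GLB1, beta-galactosidase, by 0.60 and 0.72. MANBA, beta-mannosidase, rose by 0.41 and 1.10. Its shRNA 1 call was lost when shRNA 1 replicate 3 (0.22), shRNA 2 replicate 2 (0.41) or control replicate 1, 2 or 3 (0.39, 0.38 and 0.45) was left out. The 5 that passed with neither shRNA were GAA, which degrades glycogen, MAN2B1, alpha-mannosidase, ARSA, arylsulfatase A, GALNS, a galactosamine sulfatase, and IDUA, alpha-iduronidase. Their log2 fold changes ran from -0.25 (GAA) to 0.54 (ARSA) with shRNA 1, and from -0.27 (GALNS) to 0.73 (IDUA) with shRNA 2. ARSA passed with shRNA 1 without shRNA 1 replicate 3 (0.68) and stood at 0.201 without shRNA 1 replicate 2.

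**Figure D2:**
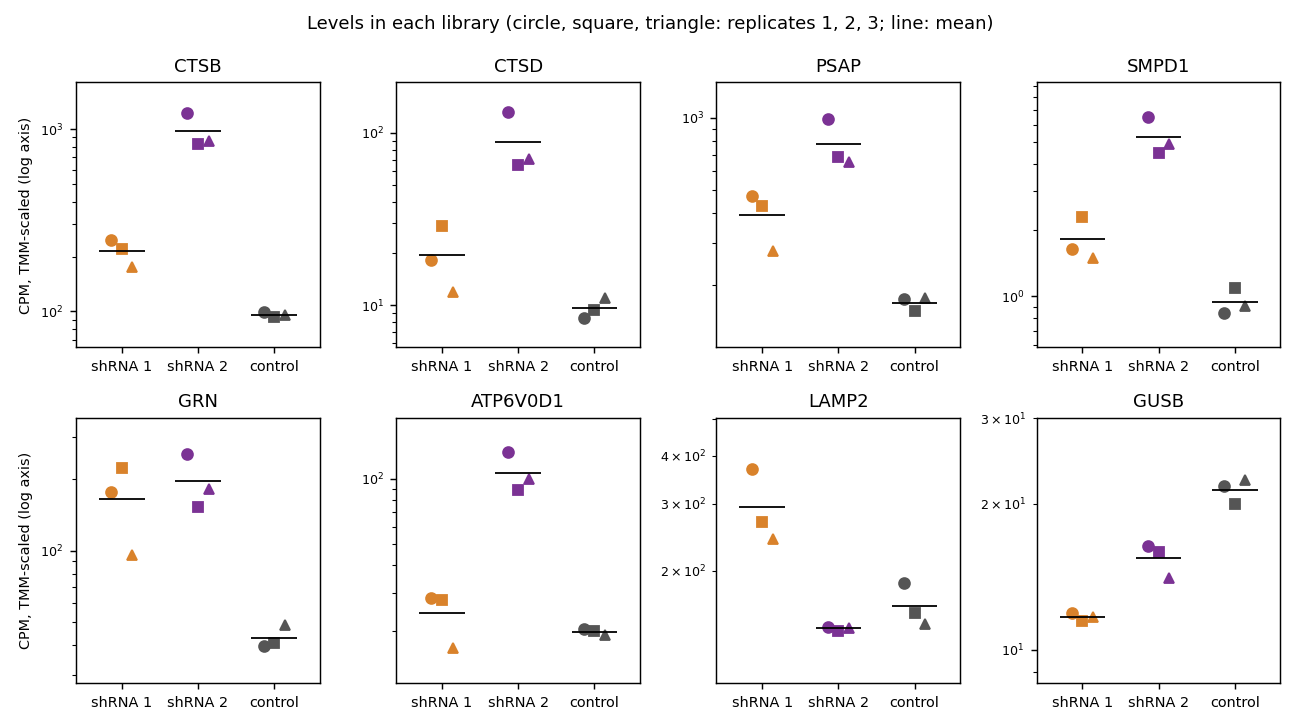
Level of 8 lysosomal genes in each library (y axis, CPM after TMM scaling, log axis with its own range per gene), with shRNA 1, shRNA 2 and control from left to right; symbols are replicates 1, 2 and 3 and lines are means. CTSB and CTSD reach 1220 and 132 CPM in shRNA 2 replicate 1, LAMP2 is high with shRNA 1 alone, and GUSB is highest in control.

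Lipid enzymes and carriers rose in nearly every case. Of 8, 6 rose with shRNA 1 and 7 with shRNA 2, beside 20.4% and 27.5% of all genes, and the medians were 0.99 and 1.82. SMPD1, acid sphingomyelinase, had 1.65, 2.3 and 1.5 CPM with shRNA 1, 6.51, 4.49 and 4.91 CPM with shRNA 2, and 0.845, 1.09 and 0.902 CPM in control. The groups were separate. SMPD1 rose by 0.94 ± 0.24 with shRNA 1 (edgeR adjusted p = 0.00887) and by 2.48 ± 0.24 with shRNA 2 (edgeR adjusted p = 7.59e-06). PSAP, the precursor of the saposins that present sphingolipids to their hydrolases, stood at 471, 426 and 277 CPM with shRNA 1, at 989, 686 and 653 CPM with shRNA 2, and at 174, 156 and 176 CPM in control. Here too no library of one group reached into another. PSAP was 2.32 times its control level with shRNA 1 (log2 1.21 ± 0.21) and 4.61 times that level with shRNA 2 (2.20 ± 0.22), at edgeR adjusted p = 0.00113 and 1.13e-05.

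GM2A, the activator that lifts ganglioside GM2 for hexosaminidase, had 95, 81.6 and 79.4 CPM with shRNA 1, 191, 165 and 164 CPM with shRNA 2, and 40, 42.1 and 43.4 CPM in control. These groups were likewise separate, with log2 fold changes of 1.03 ± 0.10 and 2.05 ± 0.11 (edgeR adjusted p = 3.17e-05 and 8.66e-08). ASAH1, acid ceramidase, rose by 1.10 and 2.01 with shRNA 1 and shRNA 2, LIPA, the acid lipase that frees cholesterol and fatty acids, by 1.31 and 1.63, and NPC2, which hands cholesterol to NPC1, by 0.62 and 0.94. The NPC2 value with shRNA 1 was 0.404 without shRNA 1 replicate 1, still past the test. NPC1, the cholesterol exporter of the membrane, rose by 0.68 with shRNA 2, while its 0.27 with shRNA 1 did not pass (edgeR adjusted p = 0.0662). PPT1, which removes palmitate from proteins, had the lowest fold change of the class with shRNA 2, with 128, 90.4 and 77.9 CPM with shRNA 1, 141, 126 and 128 CPM with shRNA 2, and 115, 100 and 92 CPM in control. Its shRNA 2 libraries lay above control and its shRNA 1 libraries on both sides of it. Neither change passed over all libraries (-0.05 ± 0.17 and 0.36 ± 0.17, edgeR adjusted p = 0.837 and 0.0858), but that of shRNA 2 passed without shRNA 1 replicate 1 (0.37) or 3 (0.35).

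Membrane proteins rose in 6 of 8 cases with each shRNA, with medians of 0.80 and 1.33. Of all genes, 20.4% rose with shRNA 1 and 27.5% with shRNA 2. CD63, a tetraspanin of late endosomes and lysosomes, had 181, 132 and 100 CPM with shRNA 1, 248, 201 and 208 CPM with shRNA 2, and 59.6, 50.4 and 46.4 CPM in control. Its groups were separate. CD63 rose by 1.40 ± 0.20 and by 2.07 ± 0.20 (edgeR adjusted p = 0.000344 and 1.22e-05). SCARB2, the receptor that carries glucocerebrosidase to the lysosome, stood at 63.2, 47.7 and 52.7 CPM with shRNA 1, at 90.2, 87.5 and 85.8 CPM with shRNA 2, and at 30, 29.3 and 28.6 CPM in control. The control and shRNA 2 libraries were each within a narrow range. SCARB2 rose by 0.90 ± 0.11 and by 1.58 ± 0.11 (edgeR adjusted p = 0.00011 and 7.12e-07).

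LAPTM5, a lysosomal membrane protein of blood cells, had 339, 282 and 213 CPM with shRNA 1, 497, 409 and 467 CPM with shRNA 2, and 180, 162 and 161 CPM in control. The order of the groups was the same as for SCARB2, without overlap, and the log2 fold changes were 0.73 ± 0.16 and 1.45 ± 0.16 (edgeR adjusted p = 0.0038 and 2e-05). CD68, the scavenger receptor used as a macrophage marker, rose by 0.87 and 1.41 with shRNA 1 and shRNA 2, and LAMP1, an abundant glycoprotein of the lysosomal membrane, by 0.74 and 1.24. MCOLN1, the calcium channel TRPML1, rose by 1.05 with shRNA 2 and stood at 0.24 ± 0.20 with shRNA 1 (edgeR adjusted p = 0.359). LAPTM4A, a transporter-like membrane protein, passed with neither over all libraries (0.22 and 0.45, edgeR adjusted p = 0.354 and 0.051), and with shRNA 2 it passed without shRNA 1 replicate 3 (0.44), shRNA 2 replicate 2 (0.53) or control replicate 1 (0.58).

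LAMP2, the partner of LAMP1 with a part in chaperone-mediated autophagy, was the one gene of the 53 that passed with shRNA 1 and not with shRNA 2. It had 369, 268 and 243 CPM with shRNA 1, 143, 139 and 142 CPM with shRNA 2, and 186, 155 and 145 CPM in control. The shRNA 1 libraries lay above control, and the shRNA 2 libraries lay just below the lowest control. LAMP2 rose 1.81-fold with shRNA 1 (0.86 ± 0.15, edgeR adjusted p = 0.00133), its change with shRNA 2 did not pass (-0.20 ± 0.15, edgeR adjusted p = 0.304), and the direct difference of shRNA 2 from shRNA 1 was -1.05 ± 0.16 (edgeR adjusted p = 0.000488).

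The counts were deposited per transcript, and the values above use the row with the highest total of each gene. In 7 genes the lowest row held under 90% of the highest, and the ratio of these rows was compared after the data had been seen. For LAMP2, whose transcripts differ in the last exon, the lowest row held 63.8%, 62.4% and 63.4% of the highest with shRNA 1, 65.3%, 64% and 68.2% with shRNA 2, and 54.4%, 54% and 53.9% in control. Every shRNA library was above every control library, by 9.09 points on average with shRNA 1 and by 11.7 points with shRNA 2. Each difference had an exact two-sided permutation p of 0.1, the smallest that 3 against 3 libraries allow, and 0.233 after Benjamini-Hochberg adjustment over 21 such tests. With the lowest row, the log2 fold change of LAMP2 with shRNA 2 was 0.09 in place of -0.20, passing in neither case. For CTSC the ratio was 35.1%, 40.9% and 52.5% with shRNA 1, 56.6%, 58.9% and 51.2% with shRNA 2, and 36.8%, 43.3% and 51.1% in control. The shRNA 2 and control libraries nearly met, and the shRNA 1 libraries spread over the control range. Separation of all 3 libraries was also found for IDS, by -5.60 points with shRNA 1 and -5.19 with shRNA 2 against control, for ARSB, by 3.76 points with shRNA 2 against control and 5.66 against shRNA 1, and for TFEB, by -2.34 points with shRNA 2 against control, each with an exact permutation p of 0.1 (0.233 adjusted). CTSL and GUSB showed no such separation. With its lowest row, CTSC passed with shRNA 2 (0.42, edgeR adjusted p = 0.00247; from 0.00247 to 0.952 over the alternatives tried).

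**Figure D3:**
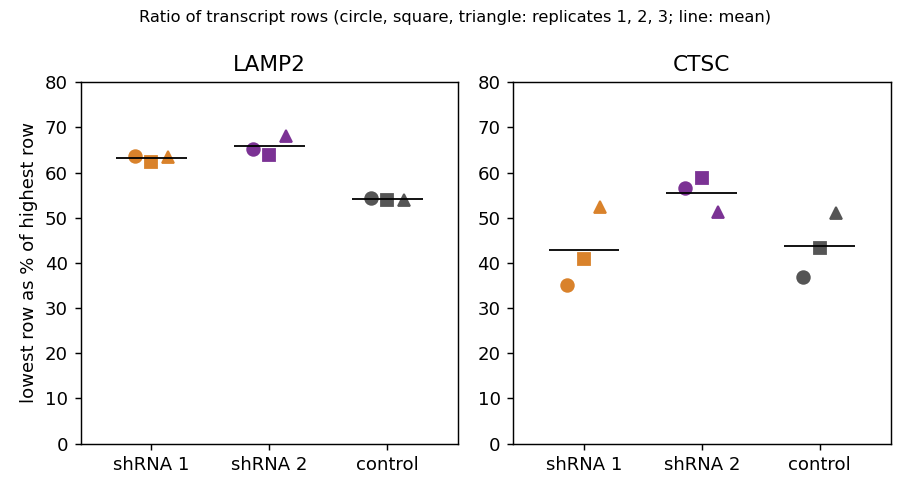
Lowest transcript row of LAMP2 and CTSC as a percentage of the highest row (y axis) in each library, with shRNA 1, shRNA 2 and control from left to right; symbols are replicates 1, 2 and 3 and lines are means. For LAMP2 all 6 shRNA libraries lie from 62.4% to 68.2% and the controls from 53.9% to 54.4%.

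Pump subunits rose chiefly with shRNA 2. Of 9, 5 rose with shRNA 1 and 8 with shRNA 2, beside 20.4% and 27.5% of all genes, and the medians were 0.30 and 1.27. Within the membrane sector V0, ATP6V0D1, which joins this sector to the catalytic one, had 28.5, 27.7 and 16.7 CPM with shRNA 1, 132, 88.4 and 99.5 CPM with shRNA 2, and 20.4, 20.1 and 19.1 CPM in control. The shRNA 2 libraries stood alone, while the shRNA 1 libraries fell on both sides of control. ATP6V0D1 rose 5.37-fold with shRNA 2 (2.42 ± 0.21, edgeR adjusted p = 6.14e-06); its change with shRNA 1 did not pass (0.29 ± 0.20, edgeR adjusted p = 0.285), except without shRNA 1 replicate 3 (0.49), and ATP6V0D1 stood at 0.165 without shRNA 1 replicate 1. ATP6V0A1, a form of the large subunit that lines the proton path, had 40.2, 39.7 and 47.1 CPM with shRNA 1, 113, 97.9 and 98.3 CPM with shRNA 2, and 21, 21.6 and 22.9 CPM in control. No groups overlapped, and both changes passed (0.96 ± 0.11 and 2.24 ± 0.11, edgeR adjusted p = 5.68e-05 and 5.69e-08). ATP6V0B, of the proteolipid ring, had 46.7, 59.8 and 27 CPM with shRNA 1, 57.2, 45.5 and 40.8 CPM with shRNA 2, and 50.8, 44.7 and 43.5 CPM in control. All groups overlapped, and neither change passed (-0.06 ± 0.25 and 0.05 ± 0.25, edgeR adjusted p = 0.878 and 0.891).

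The 4 subunits of the catalytic sector V1 rose with both shRNAs. ATP6V1A, which holds the catalytic sites, rose by 0.50 and 1.17 with shRNA 1 and shRNA 2, ATP6V1B2, its partner in the head, by 0.56 and 1.34, and ATP6V1C1, a stalk subunit, by 0.81 and 1.10. ATP6V1H, a regulatory subunit, rose by 0.30 and 1.27. Its shRNA 1 call was lost without shRNA 1 replicate 1 (0.24), shRNA 2 replicate 1 (0.28) or 2 (0.30), or control replicate 2 (0.29) or 3 (0.26). Both accessory subunits rose with shRNA 2. ATP6AP2, the prorenin receptor, had 64.1, 46.6 and 45.8 CPM with shRNA 1, 194, 177 and 170 CPM with shRNA 2, and 67.2, 56.3 and 52.1 CPM in control. Its shRNA 2 libraries were far above all others, and the shRNA 1 and control ranges overlapped. ATP6AP2 rose 3.08-fold with shRNA 2 (1.62 ± 0.15, edgeR adjusted p = 4.89e-06) and stood at -0.17 ± 0.14 with shRNA 1 (edgeR adjusted p = 0.394). ATP6AP1 rose by 1.21 with shRNA 2 and stood at 0.11 ± 0.16 with shRNA 1 (edgeR adjusted p = 0.633).

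Of 13 pump subunits outside the 53 genes, 11 could be tested. With shRNA 1, 3 rose and 1 fell, beside 20.4% and 19.0% of all genes, and with shRNA 2, 5 rose and 3 fell, beside 27.5% and 27.4%. The median was 0.18 in both comparisons. With shRNA 2 this was the value of ATP6V1G2 itself (0.18 ± 0.99). ATP6V1G2 had 0, 3.48 and 4.7 CPM with shRNA 2, against 2.28, 2.88 and 2.18 CPM in control. The shRNA 2 median thus rests on the replicate that stood apart, and it was not computed without that replicate. The largest rises with shRNA 2 were those of ATP6V1F (1.31) and ATP6V1D (0.90), both of the sector V1; ATP6V1F passed with shRNA 1 only without shRNA 1 replicate 3 (0.40). ATP6V0E1, a small subunit of the sector V0, had 108, 83.3 and 74.8 CPM with shRNA 1, 19.2, 17.2 and 17.9 CPM with shRNA 2, and 66.5, 61.1 and 53.8 CPM in control. The shRNA 1 libraries were thus above control and the shRNA 2 libraries far below it. ATP6V0E1 rose by 0.55 ± 0.14 with shRNA 1 (edgeR adjusted p = 0.00901) and fell by 1.74 on the log2 scale with shRNA 2 (SE 0.14, edgeR adjusted p = 2.35e-06). ATP6V1C2 fell by 0.48 with shRNA 2.

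**Figure D4:**
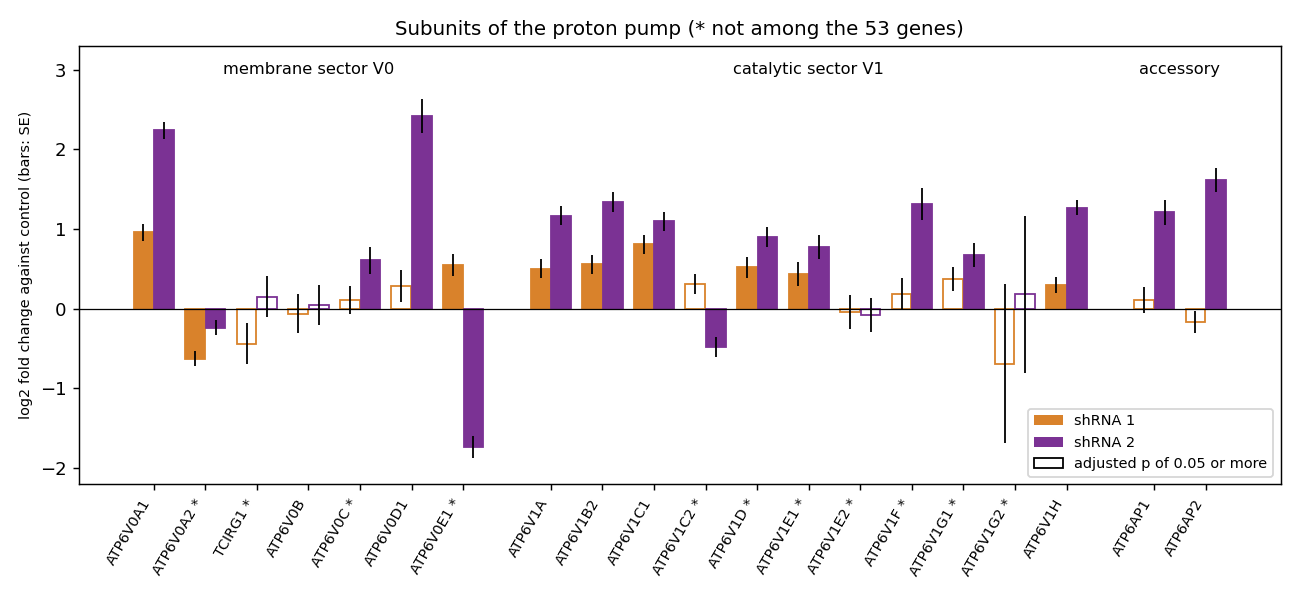
Log2 fold change against control shRNA (y axis; error bars show the SE) of the proton pump subunits tested, with shRNA 1 (orange) left of shRNA 2 (purple), filled where the adjusted p was below 0.05; an asterisk marks subunits outside the 53 genes. ATP6V0E1 has bars in opposite directions, 0.55 with shRNA 1 and -1.74 with shRNA 2.

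GRN, whose product progranulin is cut into granulins in the lysosome, had 176, 223 and 95.8 CPM with shRNA 1, 254, 153 and 182 CPM with shRNA 2, and 39.6, 40.9 and 48.6 CPM in control. Both shRNA groups lay above control and overlapped each other. GRN was 3.83 times its control level with shRNA 1 (log2 1.94 ± 0.31) and 4.56 times that level with shRNA 2 (2.19 ± 0.32), at edgeR adjusted p = 0.00165 and 0.000489. The direct comparison gave 0.25 ± 0.30 for shRNA 2 against shRNA 1 (edgeR adjusted p = 0.583), which does not show that the levels were alike. Nor did TPP1, the other gene shown with the M-box, pass this comparison (-0.20 ± 0.13, edgeR adjusted p = 0.283). The rest of the 5 genes with that motif were higher with shRNA 2 than with shRNA 1. These were CTSA (0.99, edgeR adjusted p = 0.000262), SCARB2 (0.69, edgeR adjusted p = 0.00078) and CD63 (0.67, edgeR adjusted p = 0.0244). TFEB had 5.38, 7.88 and 4.38 CPM with shRNA 1, 14.5, 11.2 and 12.6 CPM with shRNA 2, and 6.82, 7.16 and 8.68 CPM in control. The shRNA 2 libraries lay above the rest, and shRNA 1 overlapped control. TFEB rose by 0.75 ± 0.21 with shRNA 2 (edgeR adjusted p = 0.0101); its -0.36 ± 0.21 with shRNA 1 did not pass (edgeR adjusted p = 0.2), except without shRNA 1 replicate 2 (-0.64), and TFEB stood at -0.191 without shRNA 1 replicate 3.

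Of 19 genes for the other TFEB-type factors and their control by the kinase complex mTORC1 at the lysosome, 10 rose and 2 fell with each shRNA, with medians of 0.38 and 0.40. Over all genes tested, 20.4% rose and 19.0% fell with shRNA 1, and 27.5% and 27.4% with shRNA 2. RRAGD, a GTPase of the complex that holds mTORC1 and TFEB at the lysosome, had 18.8, 11.9 and 14.2 CPM with shRNA 1, 76.3, 64.2 and 67.2 CPM with shRNA 2, and 7.49, 6.89 and 7.05 CPM in control. It rose by 1.07 with shRNA 1 and by 3.28 with shRNA 2. TFEC, a relative of TFEB found in macrophages, rose by 1.96 and 2.43. MITF and TFE3, named here after their values were seen, rose by 0.45 and 0.82 with shRNA 1 and by 2.08 and 1.28 with shRNA 2. LAMTOR2, part of the anchor of those GTPases, had 18, 20.8 and 12.6 CPM with shRNA 1, 5.44, 4.16 and 3.78 CPM with shRNA 2, and 17.8, 16 and 18.3 CPM in control. It fell by 1.97 on the log2 scale with shRNA 2 (SE 0.20, edgeR adjusted p = 1.16e-05), and FLCN, which acts on RRAGC and RRAGD, fell by 0.51 with shRNA 1 and by 0.41 with shRNA 2. The FLCN calls were lost without control replicate 1 or 2 for shRNA 1 (-0.51 and -0.52), and without shRNA 1 replicate 1, shRNA 2 replicate 2 or 3 or any control for shRNA 2 (-0.43 to -0.32). The MITF call with shRNA 1 was lost without shRNA 1 replicate 1 (0.41) or control replicate 2 (0.39) or 3 (0.36).

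Tested directly, 34 of the 52 genes were higher and 1, LAMP2, was lower with shRNA 2 than with shRNA 1, against 15.5% and 16.5% of all genes; the median was 0.65, beside -0.03 over all genes. By class, this was 7 of 11 proteases, 8 of 14 glycosidases or sulfatases, 5 of 8 lipid genes, 6 of 8 membrane genes and 7 of 9 pump subunits. Without shRNA 2 replicate 1 it was 7 proteases, 4 glycosidases or sulfatases, 4 lipid genes, 3 membrane genes and 7 pump subunits. After SGSH, the largest differences were those of CTSD (2.19 ± 0.39, edgeR adjusted p = 0.00425) and CTSB (2.18 ± 0.17, edgeR adjusted p = 7.75e-06), followed by ATP6V0D1 (2.13 ± 0.21, edgeR adjusted p = 5.15e-05). GUSB was among the higher genes, since it was lowered less by shRNA 2. Without shRNA 2 replicate 1 the count was 26 higher and 1 lower. The 8 calls lost were those of CD63 (0.57), CD68 (0.41), GUSB (0.36), HEXA (0.37), IDS (0.31), LAMP1 (0.37), NPC1 (0.33) and SGSH (1.83). Some of these were also lost without another library: SGSH without shRNA 1 replicate 1 (2.34) or 3 (1.98) or control replicate 2 (2.54), GUSB without shRNA 2 replicate 2 (0.37), CD63 without shRNA 1 replicate 2 (0.65) or shRNA 2 replicate 3 (0.71), and CD68 without shRNA 1 replicate 3 (0.38) or shRNA 2 replicate 3 (0.54). IDS passed only without control replicate 1 or 2, with values of 0.30 to 0.36 in the 7 other cases. Without shRNA 1 replicate 3, 31 were higher and 2 lower, ARSA (-0.74) with LAMP2, and the median was 0.52.

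Other lysosome-related lists were tested in the same fit, in which 20.4% of all genes rose and 19.0% fell with shRNA 1. With shRNA 2 these shares were 27.5% and 27.4%. Of 29 further lysosomal hydrolases and cofactors, 14 rose and 2 fell with shRNA 1, and 18 rose and 2 fell with shRNA 2, with medians of 0.44 and 0.76. ACP5, the tartrate-resistant acid phosphatase of macrophages and osteoclasts, had 0.616, 0.469 and 0.318 CPM with shRNA 1, 53.3, 27.9 and 23.4 CPM with shRNA 2, and 0.143, 0.205 and 0.21 CPM in control. It rose by 1.31 ± 0.45 with shRNA 1 (edgeR adjusted p = 0.0441; not past the test without any 1 shRNA 1 or control library, 1.08 to 1.51) and by 7.53 ± 0.42 with shRNA 2 (edgeR adjusted p = 4.67e-07). DNASE2, the acid nuclease, rose by 0.78 and 1.96, and NAGLU, a heparan sulfate glycosidase, fell by 0.59 and by 0.67. The NAGLU calls were lost without shRNA 1 replicate 1 or 3, shRNA 2 replicate 2 or 3, or control replicate 2 or 3 for shRNA 1 (-0.63 to -0.44), and without shRNA 2 replicate 2 or 3 or control replicate 3 for shRNA 2 (-0.61 to -0.52). TMEM192, a lysosomal membrane protein, fell by 0.42 with shRNA 2. NEU1, the lysosomal sialidase, had 524, 479 and 322 CPM with shRNA 1, 0.0948, 480 and 512 CPM with shRNA 2, and 275, 219 and 218 CPM in control. It was thus almost without reads in the replicate that stood apart. With that replicate NEU1 passed with neither shRNA (0.90 ± 1.7 and 0.48 ± 1.7), and without it NEU1 rose by 0.88 with shRNA 1 and by 1.04 with shRNA 2 (edgeR adjusted p = 0.00159 and 0.000571).

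Of 14 genes that sort enzymes to the lysosome, 7 rose with each shRNA and 3 fell with shRNA 2. For these and the next lists, the shares over all genes were 20.4% up and 19.0% down with shRNA 1. With shRNA 2 they were 27.5% and 27.4%. SORT1, the sorting receptor sortilin, had 28, 24.5 and 24.7 CPM with shRNA 1, 34.5, 33.5 and 34.1 CPM with shRNA 2, and 2.68, 2.36 and 2.75 CPM in control. It rose by 3.31 ± 0.12 and by 3.71 ± 0.12 (edgeR adjusted p = 1.16e-07 and 8.13e-09). IGF2R, the large mannose 6-phosphate receptor, rose by 0.60 and 1.81, while AP1G1, an adaptor subunit, and VPS35, of the retromer, fell by 0.41 and by 0.40 with shRNA 2. VPS35 was called in the opposite direction with shRNA 1, where it rose by 0.35 (edgeR adjusted p = 0.0419). Its shRNA 2 call was lost without shRNA 2 replicate 3 (-0.38) or control replicate 1 (-0.30), and its shRNA 1 call without shRNA 1 replicate 1 (0.22), any 1 shRNA 2 library (0.32 to 0.35) or control replicate 2 (0.32) or 3 (0.26). Of 18 autophagy genes tested, 11 rose with shRNA 1 and 10 with shRNA 2. SQSTM1, the cargo receptor p62, rose by 1.03 and 2.75, and GABARAPL1, which marks autophagosome membranes, by 2.49 and 2.60. Of 6 cathepsin inhibitors tested, 4 rose with each shRNA and 1, CST7 (cystatin F), fell with shRNA 2, by 1.19. CSTB, cystatin B, rose by 0.80 and 2.43, and SERPINB6, which inhibits granule proteases, rose by 3.44 with shRNA 2, to at most 1.51 CPM there, against at most 0.142 CPM in control.

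Markers of monocytes and macrophages moved with the lysosomal genes. Of 16, 11 rose with shRNA 1 (list median 1.77) and 16 with shRNA 2 (list median 3.51), beside 20.4% and 27.5% of all genes. Their summed level was 4209, 2547 and 2016 CPM with shRNA 1, 3575, 3112 and 3138 CPM with shRNA 2, and 421, 283 and 259 CPM in control, most of it LYZ. Among the defining markers, CD14 was at 0.777 CPM or less in every library. CLEC7A and CD163 rose by 7.47 and 6.49 with shRNA 2. Among the myeloid leukemia markers, 4 of 8 rose and 2 fell with shRNA 1 and 3 rose and 3 fell with shRNA 2, beside 20.4% and 19.0% of all genes with shRNA 1 and 27.5% and 27.4% with shRNA 2. MPO was called in opposite directions, with a log2 fold change of 1.56 with shRNA 1 (edgeR adjusted p = 0.00272) and of -1.27 with shRNA 2 (edgeR adjusted p = 0.00474). MEIS1 fell by 0.90 and by 1.40, and CD38 rose by 1.84 and 2.05. KIT rose by 2.24 and 2.09 at no more than 0.286 CPM in any library, and its shRNA 2 call was lost without shRNA 2 replicate 3 (1.59). NKG7 rose by 0.95 with shRNA 2, to 22.9 to 33.3 CPM. Among the epithelial and stromal markers, all at low levels, DCN and LUM rose by 5.03 and 0.88 and KRT8 fell by 0.94 with shRNA 2. DCN also rose with shRNA 1 (2.44, edgeR adjusted p = 0.0345). That call was lost without any 1 shRNA 1 or control library (1.95 to 2.76) or without shRNA 2 replicate 3 (2.44). LUM, by contrast, fell by 1.28 with shRNA 1 (edgeR adjusted p = 0.0154), except without control replicate 2 (-0.94). With shRNA 2 LUM no longer passed without shRNA 2 replicate 2 or 3 or control replicate 1 or 3 (0.64 to 0.82), and KRT8 without shRNA 2 replicate 2 or control replicate 2 or 3 (-0.95 to -0.83). The part of these cell type programs in the lysosomal values was not tested.

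The lysosomal genes also varied together among the libraries of each shRNA group. With shRNA 1, replicate 1 was the highest of its group for 37 of 52 genes (71.2%) and replicate 3 the lowest for 37 (71.2%), against 35.9% and 36.3% of all genes tested. With shRNA 2, replicate 1 was the highest for 47 of 52 (90.4%), against 40.9% of all genes. In control, replicate 1 was the highest for 44.2% and replicate 3 for 38.5%, against 37.9% and 40% of all genes, and replicate 3 was the lowest for 44.2%, against 36.7%. The ribosomal RNA precursor RNA45S5 took 9.68%, 13.1% and 4.78% of the counts with shRNA 1, 1.12%, 5.8% and 4.54% with shRNA 2, and 3.04%, 5.25% and 5.57% in control, so that shRNA 2 replicate 1 also had the lowest share of it. With ribosomal RNA left out, 32 genes rose with shRNA 1 and 41 with shRNA 2.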

How the data were processed

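The authors deposited raw counts for each transcript, which were used for all 9 libraries; the submitters' processing notes name STAR, DESeq and build hg19, while their settings and the counting method were not given in the sources used here. Per the labels' protocols, RNA was prepared with a stranded messenger RNA kit from 1 ug. Of 80 symbols turned into dates, 78 were restored and 2 left out. The row with the highest total was kept per symbol. Per-sample columns not used numbered 0. edgeR 4.0.16 in R 4.3.3 fitted all libraries together with a mean per group (filterByExpr, TMM scaling, robust quasi-likelihood F-tests, two-sided, Benjamini-Hochberg over 16746 genes, threshold 0.05), and each SE is the log2 fold change divided by the square root of F. Levels are CPM after TMM scaling. Intervals and floors of 3 counts cover counting error only. DESeq2 1.42.0 and other settings were alternatives, and the steps were tested on simulated counts. The members and lists were chosen with earlier results of these data known. By rule, values in every library are given for CTSB, GRN, TFEB, the 3 highest and the lowest of each class with shRNA 2, any member lower than control and the 3 with the largest difference between shRNAs; up to 2 called genes each way are named from other lists.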

Additional observations from a re-analysis of the deposited data

Results flagged for a closer look

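For 3 genes the changes against control had opposite signs with the 2 shRNAs, and the difference between the shRNAs passed the test. For LAMP2 the log2 difference of shRNA 2 from shRNA 1 was -1.05 (edgeR adjusted p = 0.000488). ATP6AP2 differed by 1.79 (edgeR adjusted p = 1.01e-05), and TFEB by 1.11 (edgeR adjusted p = 0.00237), both higher with shRNA 2 than with shRNA 1. This criterion was chosen after the values were seen: none of the 53 genes was called in opposite directions against control, which had been looked for first. For each of the 3 genes, one of the changes against control did not pass by itself.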

How the results depend on the processing

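The counts of lysosomal genes against control changed little with the processing, and those between the shRNAs changed more. Over all alternatives, 29 to 34 rose with shRNA 1 and 40 to 43 with shRNA 2. Between 26 (without shRNA 2 replicate 1) and 36 were higher with shRNA 2 than with shRNA 1, against 34 in the main fit. The libraries left out in turn gave 1 to 2 genes lower with shRNA 1 (2 without shRNA 1 replicate 2, TFEB being the second), 1 to 2 lower with shRNA 2 than with shRNA 1, and a median of that difference from 0.52 (without shRNA 1 replicate 3) to 0.72. With a replicate block, 34 rose and 1 fell with shRNA 1, 41 and 1 with shRNA 2, and 35 and 1 between the shRNAs. Same-numbered libraries deviated together with r from -0.134 to 0.768, over 0.1 in 3 of 9 pairs. The highest was that of shRNA 1 replicate 1 with control replicate 1 (0.768). Pairs with unlike numbers ran from -0.696 (shRNA 1 replicate 1, control replicate 3) to 0.376 (shRNA 1 replicate 2, control replicate 3). The labels state no pairing, and whether the numbers pair the libraries cannot be told from these values. Under the replicate block CTSL and NPC1 passed with shRNA 1, PPT1 with shRNA 2, and IDS no longer differed between the shRNAs. Lipid genes higher with shRNA 2 than with shRNA 1 numbered 7 of 8 under the block, against 5 without it.

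Over single genes and settings, 2159 outcomes stayed on the same side, 24 newly passed, 43 no longer passed and 29 changed sign, none of which had passed. Between the shRNAs, only the genes called over all libraries, with TPP1 and GRN, entered this tally. A new pass or sign change of any other gene there, such as the pass of ARSA, was not counted. The sign changes came with 1 library left out, apart from those of MAN2B1 with shRNA 1 under RLE scaling (0.001), of CTSC (-0.026) and ATP6V0B (-0.025) with shRNA 2 under no filter on low counts, and of LAMP2 with shRNA 2 under the lowest row (0.09). Over the libraries left out in turn, the log2 fold changes with shRNA 1 ran from -0.065 to 0.241 for CTSC, -0.151 to 0.619 for LGMN, -0.159 to 0.129 for MAN2B1, -0.186 to 0.04 for GALNS, -0.206 to 0.446 for IDUA, -0.283 to 0.086 for PPT1, -0.014 to 0.349 for MCOLN1, -0.341 to 0.194 for ATP6V0B and -0.038 to 0.253 for ATP6AP1. Those with shRNA 2 ran from -0.078 to 0.194 for CTSC, -0.197 to 0.887 for LGMN, -0.16 to 0.299 for GAA, -0.242 to 0.024 for MAN2B1, -0.185 to 0.049 for ARSA and -0.122 to 0.159 for ATP6V0B. GRN between the shRNAs ran from -0.027 to 0.543. The cause was not tested. Depth limits SGSH, CTSF and LGMN, which had few counts in every library.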
